A study of Mus musculus with 6 samples.

Results

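The 3 rows of the deposited expression table described here are Rn18s-rs5, Mir6236 and Lars2. They were taken by gene symbol, as the 18S ribosomal RNA (rRNA) locus and 2 loci that often collect reads from rRNA-like sequence, and they were chosen by their TPM, which was higher in all 3 in one group of these same libraries. They are 3 of 41709 rows, and all 3 passed the filter of a mean of at least 1 TPM (a length-corrected share of the library, on a scale where each library sums to 1000000) that left 11611 rows for testing. RNA-seq was done on 6 tibialis anterior (TA) muscles of male C57BL/6J mice. In 3 muscles a plasmid for Flag-tagged wild-type mouse Lrpprc was electroporated (LrpprcWT, pCMV6-LrpprcWT-3xFlag), and in 3 a plasmid for the same protein with proline 27 replaced by alanine (LrpprcP27A, pCMV6-LrpprcP27A-3xFlag). The RNA was taken 14 days later. Both groups carry extra Lrpprc under the viral CMV promoter, and both had the hyaluronidase injection and the electric pulses that go with the method, so neither is an untreated muscle. Mice of 4 and 27 months were electroporated in the study, and the age of the mice behind these libraries was not given in the sources used here. The comparison asks how the muscle transcriptome differs when the added Lrpprc cannot be hydroxylated at this proline. The mouse's own Lrpprc gene was left in place in both groups.

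Ribosomal RNA is the bulk of the RNA in a cell. RNA polymerase I copies one long precursor from tandem gene repeats, and the precursor is cut into 18S rRNA of the small ribosomal subunit and 5.8S and 28S rRNA of the large one, while 5S rRNA is made separately by RNA polymerase III. These RNAs lack a poly(A) tail, and the library kit used here selects poly(A) RNA, so most rRNA is lost before sequencing and a TPM of an rRNA row is what is left over, not the amount in the cell. Lars2 encodes the leucyl-tRNA synthetase of mitochondria, which charges mitochondrial tRNA with leucine. Mir6236 is annotated as a microRNA gene. Lrpprc is an RNA-binding protein that stabilises mitochondrial mRNA.

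The annotation of the mouse genome (GRCm39) places Rn18s-rs5 at chr17:40157244-40159092 on the plus strand, as a single exon of 1849 bases of the rRNA class. Mir6236 lies at chr9:110110355-110110477 on the plus strand, a single exon of 123 bases within the span of Gm39429, a long noncoding RNA on the opposite strand. Lars2 lies at chr9:123195952-123291731 on the plus strand. It is protein coding, with 20 annotated transcripts, and Gm68993 overlaps it on the opposite strand. GC content was 55.4% for Rn18s-rs5, 56.1% for Mir6236 and 45.5% for the Lars2 exons. The longest run of A was 6 bases in Rn18s-rs5 and 8 bases in Mir6236, where it starts at base 109 of 123, and it was 11 bases in the Lars2 exons.

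A search of the same genome found that parts of each sequence resemble other places, where each alignment is counted as a place. Rn18s-rs5 resembled 36 other places on 16 chromosomes, and 6 of them were identical at 95% or more of the aligned bases. Mir6236 resembled 5 other places, at 81.5 to 90.0% identity, so 0 reached 95%, and the longest of these alignments had 81 bases. The last exon of Lars2 resembled 84, of which 11 reached 95%. Of the 84, 65 overlapped one stretch of 396 bases, chr9:123290857-123291252, which makes up 33.9% of that exon. This stretch begins after the last coding base, in the 3′ untranslated region. How reads that fit several places were assigned in the deposited values is not given in the sources used here.

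Pieces of all 3 loci were found side by side in 1 genomic segment of 3366 bases, chr9:3257784-3261149 on the minus strand. Read along that strand, it first resembles the end of the 18S locus (bases 986 to 1849, 76.7% identity over 908 aligned bases), then the first 52 bases of Mir6236 (88.5%), then 160 aligned bases of the Lars2 stretch (79.4%). A second segment, chr14:3190416-3191472, resembles Mir6236 (90.0% over 50 bases) and Lars2 (81.9% over 160 bases) in the same order. Within a gap of 10000 bases, 1 segment held pieces of 2 of the loci and 1 held pieces of all 3. In the rRNA precursor, 18S precedes the large-subunit sequence. Neither 28S rRNA nor the precursor was used as a query, so the resemblance of Mir6236 and Lars2 to 28S was not measured here.

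**Figure D1:**
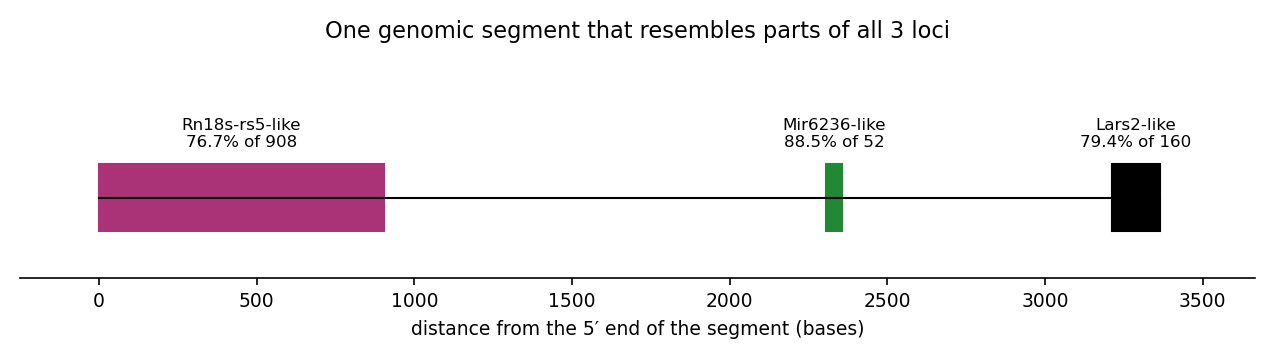
The segment of 3366 bases that resembles parts of all 3 loci, drawn to scale with distance in bases from its 5′ end. Coloured boxes mark the aligned pieces, with percent identity and aligned bases, and the 18S-like piece comes first and the Lars2-like piece last.

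Short windows of these alignments show what the loci share with the segment. For Rn18s-rs5 and Lars2 the window is the ungapped one with the most identical bases, and the full alignments were less alike, at 76.7% and 79.4% identity. For Mir6236 it is the whole alignment. Capitals mark bases that are the same in the locus and in the segment, and lower case marks bases that differ. All are printed 5′ to 3′ from GRCm39. For Rn18s-rs5 the window is chr17:40158928-40158987, with 56 of 60 bases the same. For Mir6236 it is chr9:110110355-110110406, with 46 of 52 the same. For Lars2 it is 30 bases of the repeated stretch, chr9:123290955-123290984, with 27 the same.
Rn18s-rs5: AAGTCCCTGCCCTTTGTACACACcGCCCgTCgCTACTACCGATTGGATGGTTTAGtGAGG
segment: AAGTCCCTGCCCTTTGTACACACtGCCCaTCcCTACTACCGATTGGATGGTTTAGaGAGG
Mir6236: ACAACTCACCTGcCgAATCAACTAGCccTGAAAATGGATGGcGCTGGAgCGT
segment: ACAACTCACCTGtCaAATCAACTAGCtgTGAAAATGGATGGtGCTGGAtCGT
Lars2: GTGAAAGCgGGGCCTCAcGATCcTTCTGAC
segment: GTGAAAGCaGGGCCTCAtGATCgTTCTGAC

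The microRNA that gives Mir6236 its name is a small part of that row. The mature sequence in RefSeq (table of build GRCm38.p6) has 19 bases and matches bases 67 to 85 of the gene, outside the 52 bases aligned to the segment. Its seed, bases 2 to 8, is in capitals, and 1 of 1738 listed mature mouse microRNAs, itself, had this seed.
mmu-miR-6236: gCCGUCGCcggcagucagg

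The libraries differed in more than these rows. At an adjusted p under 0.05 (limma on log2(TPM + 1) with Benjamini-Hochberg adjustment), 156 of 11611 genes (1.34%) were called higher and 2705 (23.3%) lower with LrpprcP27A, and the median log2 fold change was -0.32. A fit that took the replicate number as a block called 312 (2.69%) and 5619 (48.4%). Median-of-ratios scaling moved the median up by 0.35, to 0.04, and turned the split to 793 higher and 675 lower. Lrpprc itself was at 35.1, 37.0 and 75.2 TPM with LrpprcWT and at 26.9, 29.7 and 26.0 TPM with LrpprcP27A, and reads from the plasmids and from the mouse gene cannot be told apart in these values. All 10 muscle fibre markers were present. The summed TPM of 6 leukocyte markers was 261 to 511 with LrpprcWT and 88.4 to 173 with LrpprcP27A, that of 3 fibroblast markers 421 to 625 and 109 to 246, of 3 endothelial markers 128 to 237 and 91.9 to 130, of 2 satellite cell markers 4.15 to 5.35 and 1.67 to 2.58, and of 4 erythroid markers 2601 to 4192 and 3771 to 4702. The part of these cell types in the values of the 3 loci was not tested. In whole muscle, fewer cells of a type and less RNA per cell cannot be told apart.

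Rn18s-rs5, the 18S locus, was by far the most abundant of the 3. It stood at 17614, 8874 and 14195 TPM in LrpprcWT replicates 1 to 3 and at 44435, 37023 and 39469 TPM in LrpprcP27A replicates 1 to 3. The means were 13561 ± 4404 and 40309 ± 3777 TPM (SD, n = 3), a ratio of 2.97 and a log2 fold change of 1.62. The lowest LrpprcP27A library was 2.10 times the highest LrpprcWT library. Among all rows its order by TPM was 12, 22 and 16 with LrpprcWT and 5, 6 and 5 with LrpprcP27A. Since the loci were chosen for this difference, it is given as a description with no test, here and for the other two.

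Mir6236 was at 48.9, 43.1 and 68.3 TPM with LrpprcWT and at 165, 169 and 157 TPM with LrpprcP27A. The means were 53.5 ± 13.2 and 164 ± 6.13 TPM (SD, n = 3), a ratio of 3.06 and a log2 fold change of 1.62. The groups did not overlap, and the lowest LrpprcP27A value was 2.30 times the highest LrpprcWT value. Its order among all rows was between 1038 and 1395 with LrpprcWT and between 343 and 363 with LrpprcP27A.

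Lars2 was at 39.6, 31.5 and 44.6 TPM with LrpprcWT and at 93.6, 93.6 and 89.3 TPM with LrpprcP27A. The means were 38.6 ± 6.61 and 92.2 ± 2.51 TPM (SD, n = 3), a ratio of 2.39 and a log2 fold change of 1.25. The lowest LrpprcP27A value was 2.00 times the highest LrpprcWT value. All 3 loci had every LrpprcP27A library above every LrpprcWT library, which was so for 407 of the 11611 genes (3.51%), a pattern that the choice of the loci fixed.

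**Figure D2:**
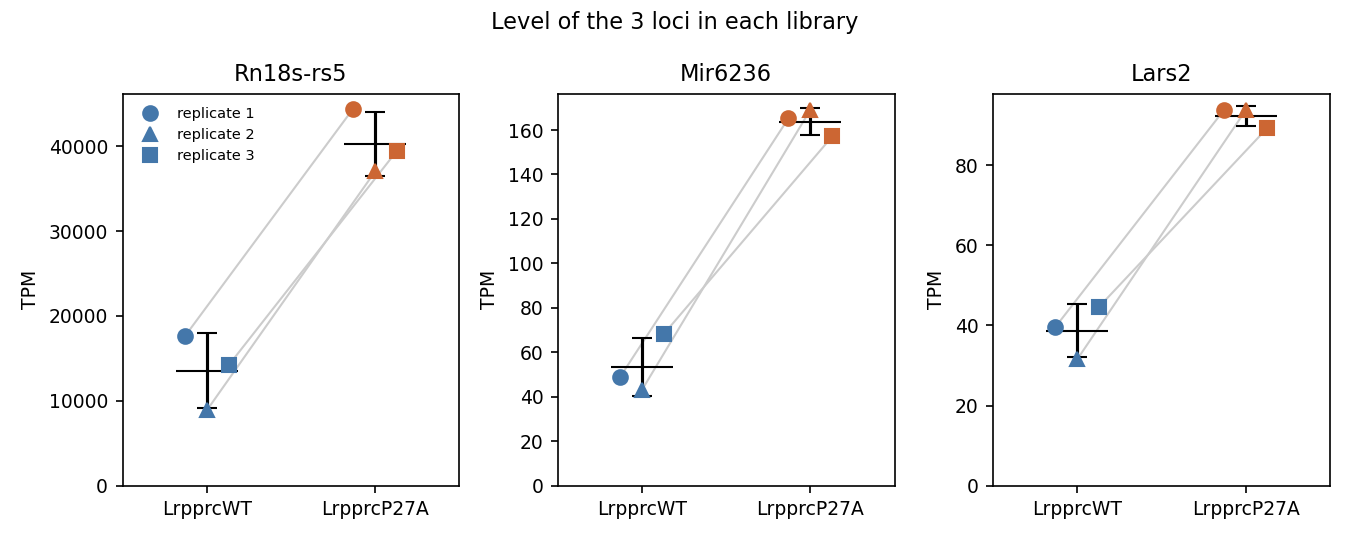
TPM of Rn18s-rs5, Mir6236 and Lars2 in each of the 6 libraries, with a separate linear axis from 0 for each locus. Symbols mark the replicate number, grey lines join muscles of the same number, and black bars give the mean and SD of 3 libraries per group. In each panel all LrpprcP27A libraries lie above all LrpprcWT libraries, and LrpprcWT replicate 2 is the lowest.

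Muscles with the same replicate number, taken as the opposite legs of a mouse, gave the same direction in 3 of 3 pairs for each locus. Because the groups of these chosen loci do not overlap, any pairing of the libraries would give this direction, so it adds no support. The ratio within pairs 1, 2 and 3 was 2.52, 4.17 and 2.78 for Rn18s-rs5. It was 3.38, 3.92 and 2.30 for Mir6236 and 2.36, 2.97 and 2.00 for Lars2. Pair 2 had the largest ratio for all 3 loci, and LrpprcWT replicate 2 was the lowest library for all 3. Without that library the log2 fold change was 1.35 for Rn18s-rs5, 1.49 for Mir6236 and 1.11 for Lars2.

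The spread between libraries was wider with LrpprcWT. The coefficient of variation was 32.5% with LrpprcWT and 9.37% with LrpprcP27A for Rn18s-rs5. For Mir6236 it was 24.6% and 3.74%, and for Lars2 17.1% and 2.72%. The highest LrpprcWT library was 1.98 times the lowest for Rn18s-rs5, 1.58 times for Mir6236 and 1.42 times for Lars2, whereas the same ratio among LrpprcP27A libraries was 1.20, 1.08 and 1.05. With 3 libraries in a group these SDs are themselves imprecise.

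The 3 loci did not keep a fixed ratio to each other. Rn18s-rs5 was 360, 206 and 208 times Mir6236 with LrpprcWT and 269, 219 and 251 times with LrpprcP27A, so the ranges overlapped. It was 445, 281 and 318 times Lars2 with LrpprcWT and 475, 395 and 442 times with LrpprcP27A, and these overlapped too. Mir6236 was 1.24, 1.37 and 1.53 times Lars2 with LrpprcWT and 1.77, 1.81 and 1.76 times with LrpprcP27A, and here the groups were apart. On the log2 scale Mir6236 and Rn18s-rs5 thus differed between the groups by the same amount and Lars2 by less. Among the LrpprcWT libraries Rn18s-rs5 was highest in replicate 1, while Mir6236 and Lars2 were highest in replicate 3.

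TPM divides a fixed total among all rows, so the level of the loci was also set against other references in the same library. Relative to the sum of the 10 muscle fibre markers, the mean ratio of LrpprcP27A to LrpprcWT was 3.15 for Rn18s-rs5, 3.27 for Mir6236 and 2.54 for Lars2. Relative to the sum of the mitochondrial rRNAs mt-Rnr1 and mt-Rnr2 it was 2.52, 2.69 and 2.08. With median-of-ratios scaling, which sets the median gene about level, it was 4.08, 4.16 and 3.23. Under each of these the groups stayed apart for all 3 loci.

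The 3 loci took 1.77, 0.895 and 1.43% of the TPM total with LrpprcWT and 4.47, 3.73 and 3.97% with LrpprcP27A. The means were 1.37% ± 0.441 and 4.06% ± 0.378 (SD, n = 3). Rn18s-rs5 made up 99.17 to 99.50% of this in every library, so Mir6236 and Lars2 hardly touched the total. Weighted by the exon length of each gene, as a rough share of reads, the 3 loci held 0.777% ± 0.221 with LrpprcWT and 2.49% ± 0.268 with LrpprcP27A (SD, n = 3). Genes of the mitochondrial genome took 36.0 to 45.2% and 44.2 to 46.1%.

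The larger share of the 3 loci lowers the fold change of other rows only slightly, but the number of calls moved more. Setting the remaining rows back to 1000000 without the 3 loci moved the median log2 fold change of the other 11608 tested genes from -0.32 to -0.29, a shift of 0.03. Leaving out the mitochondrial genes as well moved it to -0.18. The number of genes called lower was 2705 as deposited, 1739 after the first step and 656 after the second.

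**Figure D3:**
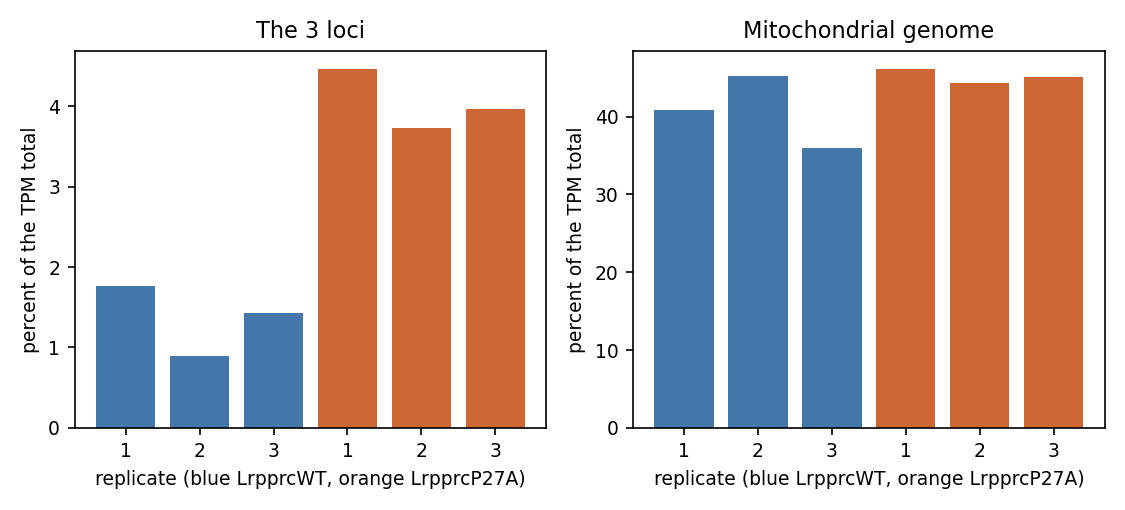
Percent of the TPM total taken by the 3 loci (left) and by genes of the mitochondrial genome (right) in each library, with bars from 0. The 3 loci held 0.895 to 1.77% in the LrpprcWT libraries and 3.73 to 4.47% in the LrpprcP27A libraries, while the ranges of the mitochondrial genes overlap.

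Other rRNA rows were compared next, with the same limma fit and adjustment over all 11611 genes. The counts of calls in this and the other lists stand beside 1.34% of all tested genes called higher and 23.3% called lower. The table lists 346 other rows for nuclear rRNA, of which 329 were at 0 in every library and 4 passed the filter. Of these 4, 1 was called higher by limma and 0 lower (0 at an unadjusted p under 0.05), and their median log2 fold change was 0.49, beside -0.32 for all genes. The called row was 5_8S_rRNA_2, a row for 5.8S rRNA, the small RNA that pairs with 28S in the large subunit. It was at 101, 112 and 78.1 TPM with LrpprcWT and at 153, 171 and 134 TPM with LrpprcP27A, and the groups did not overlap. Its log2 fold change was 0.66 ± 0.15 (SE, limma adjusted p = 0.0249), and the adjusted p ranged from 0.000204 to 0.236 over 15 alternatives, with 11 below the threshold. Of these 11, 1 was a fit that altered only other rows, so its outcome was fixed. The Kruskal-Wallis test was not among the 15, and the row did not pass it (adjusted p = 0.0969).

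The others were rows for 5S rRNA. n-R5s106 had a log2 fold change of 0.65 (limma adjusted p = 0.107), which passed with the replicate block (adjusted p = 0.00152, range over 14 alternatives 0.00152 to 0.508). n-R5s118 had 0.32 (limma adjusted p = 0.274), and it passed with the block and median-of-ratios scaling together (log2 fold change 0.60, adjusted p = 0.0224, range over 14 alternatives 0.0224 to 0.851). n-R5s130 had -0.40 (limma adjusted p = 0.111), and it passed as lower with the block (adjusted p = 0.0307, range 0.0307 to 0.624). These 5S rows were between 0.458 and 3.43 TPM, low enough that the pseudocount shrinks their fold change, and near-identical copies could share their reads.

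Set against 5_8S_rRNA_2 in the same library, the larger difference of the 18S locus is visible. Rn18s-rs5 was 174, 79.5 and 182 times 5_8S_rRNA_2 with LrpprcWT and 290, 216 and 295 times with LrpprcP27A, with no overlap. Mir6236 was 0.484, 0.387 and 0.874 times it with LrpprcWT and 1.08, 0.988 and 1.17 times with LrpprcP27A. Lars2 was 0.392, 0.283 and 0.571 times it and 0.611, 0.547 and 0.666 times, and here the groups overlapped.

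The mitochondrial rRNAs, which the mitochondrial genome encodes, did not pass the test as reported, and 0 of the 2 had an unadjusted limma p under 0.05. mt-Rnr1, the small-subunit rRNA, was at 2873 ± 334 TPM with LrpprcWT and 3377 ± 668 TPM with LrpprcP27A (SD, n = 3), a log2 fold change of 0.22 (limma adjusted p = 0.268). It passed where the replicate block was joined with median-of-ratios scaling (log2 fold change 0.64, limma adjusted p = 0.0430, range over 15 alternatives 0.0430 to 0.851). mt-Rnr2, the large-subunit rRNA, was at 3314 ± 571 and 3719 ± 461 TPM, a log2 fold change of 0.17 (limma adjusted p = 0.356). Of 22 mitochondrial tRNA rows 3 were tested, and 1, the methionine tRNA mt-Tm, was called higher. It was at 0.831, 1.44 and 0.791 TPM with LrpprcWT and at 3.64, 5.17 and 3.69 TPM with LrpprcP27A, a log2 fold change of 1.36 ± 0.18 (SE, limma adjusted p = 0.0111).

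Other short structured RNAs without a poly(A) tail, mostly made by RNA polymerase III, were mixed. Of 359 rows 9 were tested, 3 were called higher, 1 lower and 5 neither, beside 1.34% higher and 23.3% lower over all genes, and the median log2 fold change was 0.42. 7SK_159, a row for the 7SK RNA that holds back the transcription elongation factor P-TEFb, was at 75.0, 37.9 and 48.1 TPM with LrpprcWT and at 106, 116 and 93.6 TPM with LrpprcP27A, a log2 fold change of 1.01 ± 0.22 (SE, limma adjusted p = 0.0231). Rn7s1, a row for the 7SL RNA of the signal recognition particle, had 0.63 ± 0.18 (SE, limma adjusted p = 0.0414). Rny1, a Y RNA, had 1.49 ± 0.47 (SE, limma adjusted p = 0.0490), and its LrpprcWT values of 9.21, 7.97 and 1.46 TPM were widely spread. Of 15 alternatives each, 12 called 7SK_159, 9 called Rn7s1 and 4 called Rny1. In each case 1 of these calls came from the fit of Rn7s1 summed with Rn7s2 (below). That fit left 7SK_159 and Rny1 all but unchanged, and for Rn7s1 it measures another quantity. The Kruskal-Wallis test was not among the 15, and none of these rows passed it (adjusted p = 0.0969 each). The limma adjusted p of Rny1 ranged from 0.000166 to 0.366, and its log2 fold change was 0.84 without LrpprcWT replicate 3.

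Rn7s2 shares its sequence with Rn7s1, and reads can be split between them. It was at 80.5, 115 and 18.7 TPM with LrpprcWT and at 178, 179 and 140 TPM with LrpprcP27A, a log2 fold change of 1.54 (limma adjusted p = 0.0639) that passed with the replicate block (adjusted p = 7.18e-05, range over 14 alternatives 7.18e-05 to 0.422). The sum of both rows was 178 ± 43.8 TPM with LrpprcWT and 329 ± 41.3 TPM with LrpprcP27A (SD, n = 3), a log2 fold change of 0.90 ± 0.17 (SE, limma adjusted p = 0.0173). The ratio of Rn18s-rs5 to this sum overlapped between the groups, at 111, 38.8 and 95.8 with LrpprcWT and 126, 105 and 140 with LrpprcP27A. That of Lars2 overlapped too, with a ratio of the group means of 1.23, while that of Mir6236 did not, with a ratio of 1.57.

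Bc1, a polymerase III RNA known from neurons, was called lower, with a log2 fold change of -1.26 ± 0.21 (SE, limma adjusted p = 0.0141). Under median-of-ratios scaling the calls of Bc1 (-0.96, limma adjusted p = 0.0521) and Rny1 (1.84, limma adjusted p = 0.0583) were lost. The list then had 2 calls higher and 0 lower. The remaining rows of the list were 7SK_53 (log2 fold change 0.00), Rny3 (-0.20), Rpph1, the RNA of RNase P (-0.21), and Vaultrc5, a vault RNA (0.42), and none passed the test. Under median-of-ratios scaling Rny3 and Rpph1 were at 0.14 and 0.15, so their sign depends on the scaling.

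Small nuclear and nucleolar RNAs gave few rows to test. Of 228 small nuclear RNA rows 3 were tested and 0 were called in either direction by limma, with 0 at an unadjusted p under 0.05, and the largest log2 fold change was 0.64, for Rnu5g of the spliceosome. Of 176 snoRNA and scaRNA rows, which guide the modification of rRNA and of small nuclear RNA, 2 were tested and 1, Scarna2, was called higher (0.65 ± 0.19, SE, limma adjusted p = 0.0398). Scarna2 averaged 0.618 TPM with LrpprcWT and 1.51 TPM with LrpprcP27A, so it passed the filter only through the group where it was high. The filter thus favoured this direction, and the call gives no support. It was called in 6 of 12 alternatives. Rnu5g, at 0.637 and 1.75 TPM, also passed the filter only through LrpprcP27A. Of 13 tested replication-dependent histone genes, whose mRNAs end in a stem-loop instead of a poly(A) tail, 1, H4c9, was called higher (0.54 ± 0.14, SE, limma adjusted p = 0.0289) and 0 lower (2 at an unadjusted limma p under 0.05).

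Mir6236 was the one microRNA gene among the microRNA rows to pass the filter. Of 1202 other such rows 1177 were at 0 in every library and 4 passed the filter, all of them long host transcripts of microRNAs and not microRNA genes. Of the 4, 0 were called higher by limma (0 at an unadjusted p under 0.05) and 1, Mir22hg, was called lower (log2 fold change -1.27 ± 0.21, SE, limma adjusted p = 0.0139). Of 5 tested nuclear-retained long noncoding RNAs 3 were called lower, beside 23.3% of all genes, with the largest fall for the imprinted Meg3 (-2.45 ± 0.42, SE, limma adjusted p = 0.0153).

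**Figure D4:**
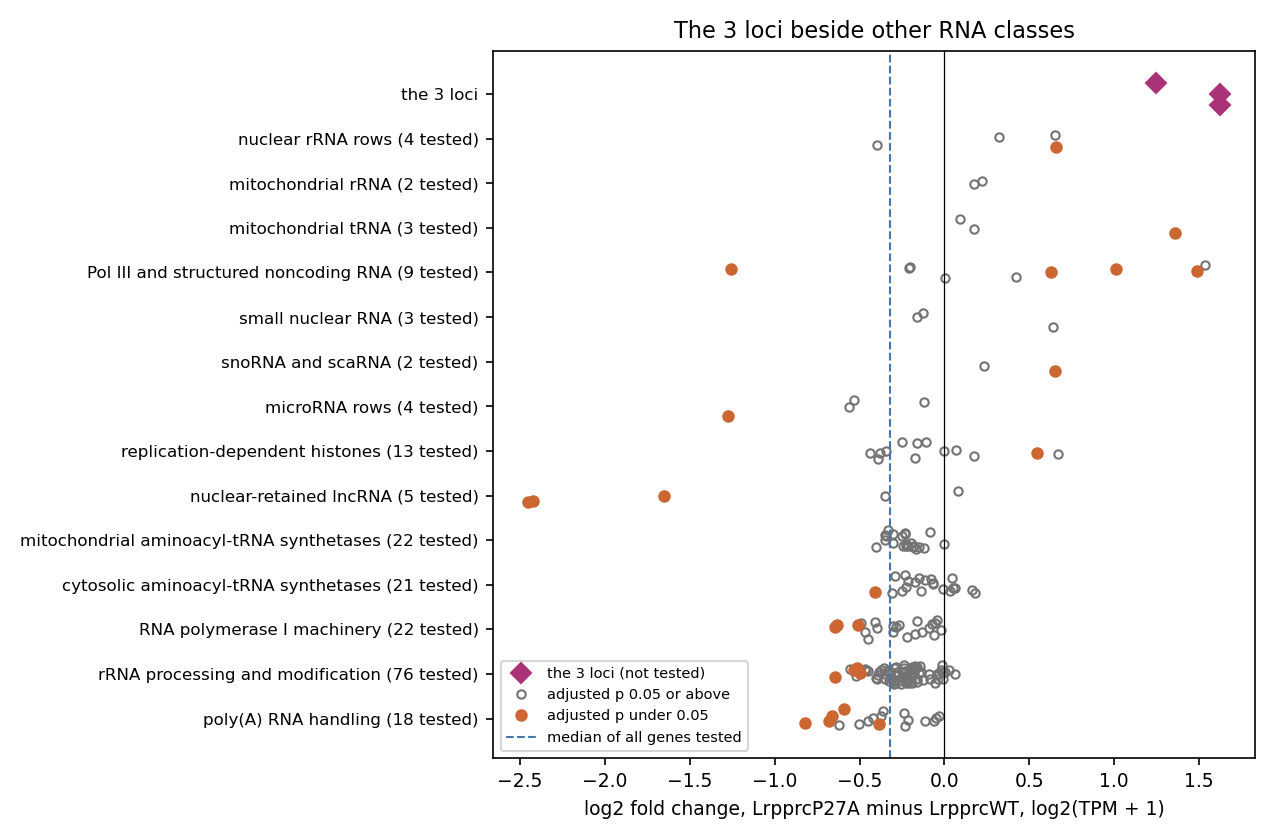
Log2 fold change of the 3 loci (diamonds) and of each tested gene in the compared lists (circles, filled where the limma adjusted p is under 0.05), on the log2(TPM + 1) scale. The dashed line is the median of all 11611 genes at -0.32. The 3 loci lie at 1.25 to 1.62, and few other points lie beyond 1. Rn7s2 (1.54), Rny1 (1.49) and mt-Tm (1.36) lie within the range of the loci.

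Lars2 was set beside the other enzymes of its family. The other 22 synthetases that charge tRNA in mitochondria were all tested, and 0 were called in either direction by limma, with 0 higher and 4 lower at an unadjusted p under 0.05. All 22 had a log2 fold change below 0, with a median of -0.23, beside -0.32 for all genes. That sign depends on the scaling, since under median-of-ratios scaling 18 of the 22 were above 0 with a median of 0.12, and 1 was called higher. The largest difference was that of Hars2, the mitochondrial histidyl enzyme, at -0.41 (limma adjusted p = 0.0764), which passed with the replicate block (adjusted p = 0.0185, range over 15 alternatives 0.00500 to 0.806). The block called 3 of the 22 lower, beside 48.4% of all genes called lower with the block.

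By level, Lars2 held place 3, 4 and 2 among the mitochondrial synthetases in LrpprcWT replicates 1, 2 and 3 and place 1 in each LrpprcP27A library. The highest of the others in every library was Gars, which serves both mitochondria and cytosol, at 39.3 to 51.1 TPM with LrpprcWT and 36.9 to 39.5 TPM with LrpprcP27A. Lars2 was 4.67, 4.32 and 4.66 times the median of the others with LrpprcWT and 14.5, 14.2 and 13.5 times with LrpprcP27A. It made up 12.4 to 13.9% of the summed TPM of the whole family with LrpprcWT and 28.8 to 30.3% with LrpprcP27A. The values are 1 per gene, so which part of the Lars2 transcript the reads came from cannot be told.

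Lars, the cytosolic leucyl-tRNA synthetase, was at 16.7, 13.7 and 18.1 TPM with LrpprcWT and at 14.7, 14.2 and 15.4 TPM with LrpprcP27A, and the groups overlapped. Its log2 fold change was -0.11 (limma adjusted p = 0.496), and it was 0.28 under median-of-ratios scaling. Of the 21 cytosolic synthetase genes tested, 0 were called higher by limma (0 at an unadjusted p under 0.05) and 1, the histidyl enzyme Hars, was called lower (-0.41 ± 0.12, SE, limma adjusted p = 0.0441), a call that was lost under median-of-ratios scaling (log2 fold change -0.00, adjusted p = 0.995, range over 15 alternatives 0.00639 to 0.995).

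Genes that make and process rRNA were called lower by limma in a smaller share than the 23.3% of all tested genes, a difference that was not tested, and 0 were higher at an unadjusted p under 0.05. Of 22 tested genes for RNA polymerase I and its factors, 0 were called higher and 3 lower, with a median log2 fold change of -0.28. The largest was Cavin1, a caveolar coat protein also known as a release factor of polymerase I, at -0.64 ± 0.19 (SE, limma adjusted p = 0.0402). The other two, Taf1d and Ubtf, are named after their values were seen. Of 76 tested genes for rRNA processing and modification, 0 were called higher and 4 lower, with a median of -0.24 and the largest fall for Sbds, a factor of large-subunit maturation (-0.64 ± 0.17, SE, limma adjusted p = 0.0317).

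The medians lie near the -0.32 of all genes, and their sign depends on the scaling. Under median-of-ratios scaling the polymerase I list had a median of 0.11 and the processing list 0.13, and the calls were 1 higher and 0 lower and 2 higher and 0 lower. With the replicate block 8 and 21 genes of the lists were called lower, beside 48.4% of all genes. Of 18 tested genes that add, bind or trim poly(A) tails, 0 were called higher (0 at an unadjusted limma p under 0.05) and 5 lower, close to the 23.3% of all genes, with a median of -0.38 and the largest fall for Tent5a, a poly(A) polymerase (-0.82 ± 0.22, SE, limma adjusted p = 0.0327). Under median-of-ratios scaling that list had 1 call higher, 0 lower and a median of -0.06.

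Single libraries decided many of these calls. Over all lists 7 genes were called higher and 18 lower, and without LrpprcWT replicate 3 the calls were 0 and 0, while without LrpprcWT replicate 2 they were 10 and 92. The 7 include Scarna2, which passed the filter only through its LrpprcP27A values. Calls higher fell to 3, 4, 1 and 3 without LrpprcWT replicate 1 or LrpprcP27A replicates 1, 2 or 3, and calls lower to 5, 11, 5 and 5.

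The genes with the profile most like each locus were found by the root mean square difference of centred log2(TPM + 1) over the 6 libraries. For Rn18s-rs5 they were Gm45234 (0.27), Mir6236 (0.28), Lars2 (0.28), Mylk4 (0.35) and 7SK_159 (0.35). For Mir6236 they were Lars2 (0.21), Rn18s-rs5 (0.28), Gm45234 (0.31), Htra4 (0.36) and mt-Tm (0.36). Lars2 had Mir6236 first and Mylk4, Htra4, Cacna2d4 and 7SK_159 after it. Being high in the same 3 libraries puts a gene near the loci by this measure. Gm45234 and Htra4 averaged 0.153 and 0.467 TPM with LrpprcWT and 2.43 and 2.31 TPM with LrpprcP27A. They passed the filter of 1 TPM only through the group where they were high, so their place among the nearest gives no support.

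Of these neighbours Mylk4, a myosin light chain kinase gene, was the most abundant, at 199 ± 47.4 TPM with LrpprcWT and 408 ± 34.6 TPM with LrpprcP27A (SD, n = 3). Cacna2d4, a calcium channel subunit gene, was at 1.87 ± 0.382 and 5.01 ± 0.397 TPM, and Htra4, a serine protease gene, at 0.467 ± 0.165 and 2.31 ± 0.853 TPM. Gm45234 was at 0.447, 0.0114 and 0 TPM with LrpprcWT and at 2.28, 2.96 and 2.04 TPM with LrpprcP27A. It overlaps Grcc10, the U7 small nuclear RNA gene Rnu7 and Atn1 on the same strand, so its reads are uncertain.

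**Figure D5:**
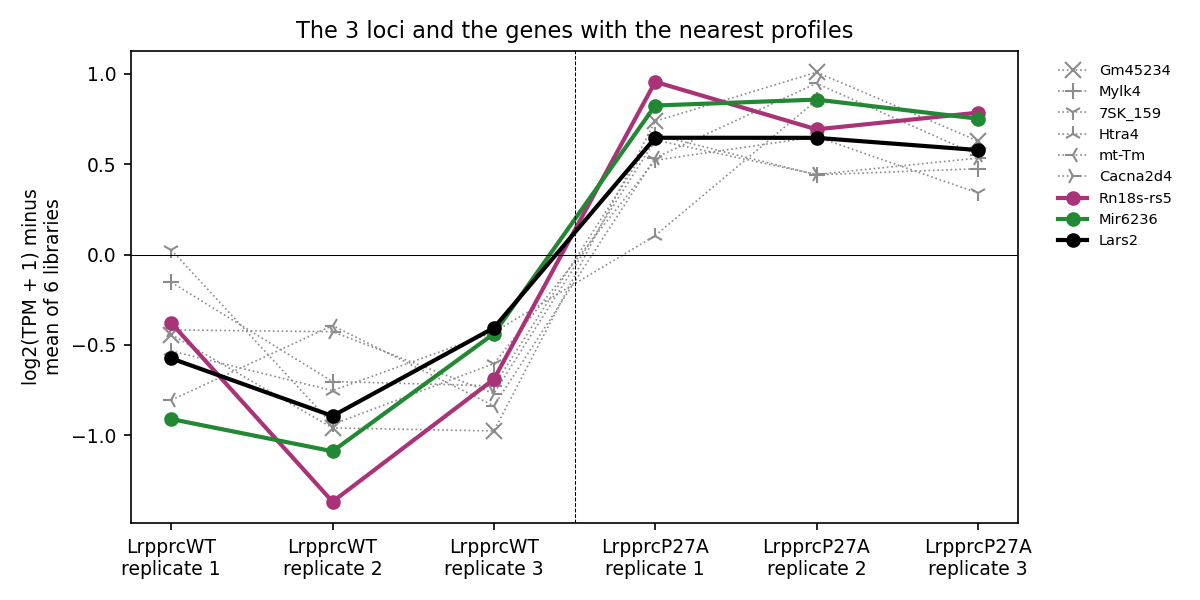
Log2(TPM + 1) in each library minus the mean of the 6 libraries, for the 3 loci (coloured lines) and the other genes among the nearest profiles (grey). Lines join the points of 1 gene, the dashed vertical line parts LrpprcWT from LrpprcP27A, and the order of replicates carries no meaning. The loci lie above 0 in all LrpprcP27A libraries and below 0 in all LrpprcWT libraries, with Rn18s-rs5 lowest in LrpprcWT replicate 2.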

How the data were processed

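RNA-seq libraries of 6 TA muscles, 3 per group, were used. Per the study's methods, the authors made libraries with a poly(A) selecting kit, trimmed and filtered paired reads, aligned them to GRCm39 (mm39) with CLC Genomics Workbench, and TPM of 41709 genes is what they deposited. TPM keeps no depth, so depth and counting error per library are unknown. The annotation they used and the handling of reads that fit several places are not given in the sources used here. Columns of other samples numbered 0. The labels give an RNA input of 1 mg and the methods give micrograms.

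The 3 loci and the gene lists were chosen with earlier results of these data known. From the deposited TPM, log2(TPM + 1) was compared, over the 11611 genes whose TPM averaged 1 or more, with limma 3.58.1 in R 4.3.3 (empirical Bayes moderation with a trend, two-sided, Benjamini-Hochberg adjustment over all genes tested, threshold 0.05). Adding 1 shrinks the fold change of low genes. No test was made on the 3 loci. Per the study's methods, the replicates of a group are muscles of distinct mice.

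Same-numbered libraries deviated together from their group means (correlations 0.36, 0.53 and 0.36 across genes), and the muscles of a mouse were contralateral, so a fit with the replicate number as a block was also made. That the number is the mouse is nowhere stated outright.

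Named genes are the 3 loci, every tested row of the nuclear rRNA, mitochondrial rRNA and polymerase III lists, the called gene with the largest change in each direction of every other list (or the largest change where none was called), Lars, and the 5 nearest profiles of each locus. Exceptions are stated in the text. The marker lists for 8 cell types were used only for their summed TPM. Schwann cell markers summed to 17.4 to 34.6 TPM with LrpprcWT and 15.2 to 32.6 with LrpprcP27A, adipocyte markers to 0.891 to 2.67 and 0.862 to 3.76 with Plin1 below 1 TPM in every library, and muscle fibre markers to 153958 to 171686 and 144110 to 163565.

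Genomic copies were searched with BLAST 2.17.0 in GRCm39 at an E value of at most 1e-06, with gene models from GENCODE for the same build. Exon lengths matched 37033 of the 41709 symbols (88.8%). Simulated data tested the fit for the comparison of LrpprcP27A with LrpprcWT: of 11611 genes 200 were changed by 2 on the log2 scale, 193 of these were called in the right direction, and 3 unchanged genes were called. The simulated noise was independent between genes and libraries, with no deviation shared within a library and no shift of the median. These counts therefore do not show how reliable the calls in the real data are.

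Alternatives were another pseudocount (0.1), no filter, a mean TPM of at least 5, the replicate block, median-of-ratios scaling, rescaling without the 3 loci and without mitochondrial genes, the Kruskal-Wallis test of the methods, a rough share of reads, and each library left out in turn. Chosen after seeing the data were median-of-ratios scaling with the block added, and the sum of Rn7s1 and Rn7s2. Counts and ranges over alternatives given for a named gene include these where they apply and leave out the Kruskal-Wallis test.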

Additional observations from a re-analysis of the deposited data

How the results depend on the processing

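The 3 loci were higher with LrpprcP27A under every alternative run, a direction that the choice of the loci fixed. Their log2 fold changes of 1.62 (Rn18s-rs5), 1.62 (Mir6236) and 1.25 (Lars2) became 2.05, 2.04 and 1.66 with median-of-ratios scaling, and that of Lars2 became 1.45 when rescaled without the 3 loci and mitochondrial genes. With each library left out they ranged from 1.35 to 1.84, 1.49 to 1.81 and 1.11 to 1.36. The difference in the share of the 3 loci was 2.69 percentage points, 1.71 as a rough share of reads, and 2.46 to 2.89 with each library left out. The shift of the median without the 3 loci was 0.032, 0.025 over genes above 0 in all 6 libraries, and 0.029 to 0.034 with each library left out.

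Counts of calls depended on the processing. Genes called higher and lower numbered 7 and 24 with no filter, 793 and 675 with median-of-ratios scaling, and 0 and 0 by the Kruskal-Wallis test (407 and 5530 at an unadjusted p under 0.05), which cannot pass the adjustment with 3 libraries against 3. Its p is a chi-square approximation here and for the listed genes below, and the smallest exact permutation p for 3 against 3 is 0.1. The 407 is also the number of genes with every LrpprcP27A library above every LrpprcWT library. Calls lower numbered 1560 at a mean TPM of at least 5, 1739 rescaled without the 3 loci and 656 without mitochondrial genes as well. With each library left out, calls higher ranged from 3 to 304 and calls lower from 14 to 6918, lowest in both without LrpprcWT replicate 3 and highest without LrpprcWT replicate 2. With the replicate block they were 312 and 5619, and with the block and median-of-ratios scaling 1995 and 1636.

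Listed genes called higher and lower, 7 and 18 as reported, numbered 0 and 0 with no filter and by the Kruskal-Wallis test (11 and 64 at an unadjusted p under 0.05; 11 and 49 with no filter), 19 and 4 with median-of-ratios scaling, and 47 and 7 with the block added to it. With the replicate block alone 55 were lower. At a mean TPM of at least 5, 4 were higher. Calls lower were 11 rescaled without the 3 loci and 5 without mitochondrial genes as well. With each library left out they ranged from 0 to 10 and from 0 to 92. Lars turned to 0.28 on the log2 scale with the block and median-of-ratios scaling (adjusted p = 0.0266). Over the other alternatives for each named gene, 315 values stayed on their side of the threshold, 91 lost their call and 11 gained one. Of the 315, 26 came from the fit with Rn7s1 and Rn7s2 summed, which altered only Rn7s1 and the adjustment. Of the 91, 14 came from the Kruskal-Wallis test. The replicate block gained 4 calls (n-R5s106, n-R5s130, Rn7s2 and Hars2) and lost 0, and joined with median-of-ratios scaling it gained mt-Rnr1 (adjusted p = 0.0430) and n-R5s118 (0.0224). The joint setting lost the calls of Hars (limma adjusted p = 0.994) and Cavin1 (0.0763). In it n-R5s130 (0.387) and Hars2 (0.768) were not called. The causes of these changes were not tested, except that rescaling moves all genes of a library together. Without counts, depth limits cannot be given for genes at low TPM.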
